A study of Mus musculus with 8 samples.

Results

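Imprinted genes are transcribed mainly from the allele inherited from one parent. The 10 examined here are Igf2, H19, Igf2r, Dlk1, Meg3, Peg3, Mest, Plagl1, Grb10 and Peg10, picked by gene name as imprinted genes of fetal growth out of 35275 genes in a bulk RNA sequencing table of mouse tumours. Igf2 headed the choice because its level differed strongly between the 2 genotypes compared. For that reason the genotype difference of these 10 genes is given as a description, with no test. All 10 entered the fit over 15412 genes.

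The tumours arose after Cre recombinase was brought into the peritoneal cavity by an adenovirus, in mice whose Nf2 and Cdkn2a alleles were floxed. Every group, controls included, is therefore labelled as lacking Nf2 and Cdkn2a. In 3 primary peritoneal tumours (19, 20 and 127) Pak2, a p21-activated kinase gene, was wild-type. In 4 primary tumours (13, 14A, 59 and 61) Pak2 was floxed as well and is labelled as deleted, and a secondary tumour, 14B, carries the same genotype. Which cells took up the virus, the age, sex and strain of the animals and whether tumours came from separate animals are given by no source used here, so p-values measure only the spread between these samples.

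Total counts ranged from 13469851 to 20402401 per tumour. Levels are in CPM, read counts divided by the adjusted size of the library over the genes in the fit and put on a common scale. On this scale 3 counts, the limit that a count of 0 allows, correspond to 0.139 to 0.311 CPM. Of 8 pancreatic enzyme genes listed, 3 entered the fit, so their CPM is not a share of all counts. Pak2 itself stood at 90.1 to 128 CPM in the wild-type tumours and at 131 to 238 CPM in the 4 primaries labelled Pak2-null, so its transcripts were not lower under that label. Nf2 ranged from 104 to 142 CPM and from 74.6 to 118 CPM, and Cdkn2a from 2.37 to 3.15 CPM and from 3.89 to 5.7 CPM, in the same order. Of 11 markers of mesothelium, the lining from which mesothelioma grows, Pdpn ranged from 20.9 to 283 CPM, Msln from 1.11 to 132 CPM and Krt8 from 0.0619 to 181 CPM, and Calb2 and Muc16 were at or below 0.622 CPM in every tumour. Pancreatic enzyme genes summed to 25347 CPM in tumour 14A and 180826 CPM in 14B, against at most 61.5 CPM elsewhere. The fibroblast list summed to 1595 and 2715 CPM in those 2 tumours and to between 13066 and 19734 CPM in the others. The Y-linked gene Ddx3y was at 1.62 CPM in tumour 19 and 1.24 CPM in tumour 20, while the other 6, the wild-type tumour 127 included, had 84.2 to 116 CPM. Xist, a noncoding RNA made from the inactive X chromosome, was at 151, 459 and 26.6 CPM across the wild-type tumours and at most at 1.33 CPM in the others, so tumour 127 held transcripts of both kinds. The part of these sex differences in any group difference was not tested.

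Igf2 and H19 lie side by side and share enhancers. On the maternal chromosome the protein CTCF binds a control region between them and keeps the enhancers from Igf2, so that H19 is transcribed. On the paternal chromosome this region is methylated and Igf2 is transcribed. Igf2 encodes a fetal growth factor that signals through the IGF1 and insulin receptors, and the Igf2r protein removes it from the cell surface. Both genes are abundant in embryonic mesoderm and are normally shut down in most tissues after birth, together with a set of other imprinted genes.

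Igf2 (ENSMUSG00000048583) spans chromosome 7, 142650766 to 142666816 (GRCm38, minus strand), and H19 (ENSMUSG00000000031) spans 142575529 to 142578143, a distance of 72.6 kb. Some member transcripts also carry microRNAs. Mature microRNAs that lie inside a member on its own strand are shown because the level of the host transcript is what these libraries measured. The small RNAs themselves were not measured. Sequences are from RefSeq (GRCm38.p6), 5′ to 3′, with the seed, bases 2 to 8, in capitals.
miR-675-5p, in an exon of H19: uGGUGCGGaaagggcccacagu
miR-675-3p, in an exon of H19: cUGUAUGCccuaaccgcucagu
miR-483-5p, in an intron of Igf2: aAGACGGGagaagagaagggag
miR-483-3p, in an intron of Igf2: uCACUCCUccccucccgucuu
miR-335-5p, in an intron of Mest: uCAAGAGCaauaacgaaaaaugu
miR-335-3p, in an intron of Mest: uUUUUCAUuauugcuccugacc
miR-770-5p, in an exon of Meg3: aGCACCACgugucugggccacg
miR-770-3p, in an exon of Meg3: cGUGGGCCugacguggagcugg
No seed is shared among these 8. In the same table miR-1906 lies within an exon of Meg3.

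Promoter windows of 300 bases (250 before the start and 50 from it on) were found for 8 of the 10 genes, H19 and Peg10 being the exceptions, with 15 windows in all. Imprinting is written as methylation of CpG dinucleotides, so 4 windows of genes that were high in the wild-type tumours are shown with each CG in capitals. Methylation was not measured.
Igf2, most downstream of its 4 starts, chr7:142657447-142657746, minus strand: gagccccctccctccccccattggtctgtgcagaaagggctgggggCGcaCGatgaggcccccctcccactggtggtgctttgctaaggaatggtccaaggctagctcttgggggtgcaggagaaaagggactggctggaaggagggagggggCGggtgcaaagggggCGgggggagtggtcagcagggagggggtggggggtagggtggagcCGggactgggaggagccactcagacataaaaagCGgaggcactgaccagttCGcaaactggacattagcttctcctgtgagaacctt
Plagl1, chr10:13090582-13090881, plus strand: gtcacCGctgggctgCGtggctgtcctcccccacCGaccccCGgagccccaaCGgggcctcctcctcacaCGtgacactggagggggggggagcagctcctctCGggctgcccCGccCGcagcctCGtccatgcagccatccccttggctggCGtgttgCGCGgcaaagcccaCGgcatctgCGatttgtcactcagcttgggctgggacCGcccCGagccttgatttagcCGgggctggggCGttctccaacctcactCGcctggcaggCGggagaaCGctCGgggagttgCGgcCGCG
Peg3, chr7:6730370-6730669, minus strand: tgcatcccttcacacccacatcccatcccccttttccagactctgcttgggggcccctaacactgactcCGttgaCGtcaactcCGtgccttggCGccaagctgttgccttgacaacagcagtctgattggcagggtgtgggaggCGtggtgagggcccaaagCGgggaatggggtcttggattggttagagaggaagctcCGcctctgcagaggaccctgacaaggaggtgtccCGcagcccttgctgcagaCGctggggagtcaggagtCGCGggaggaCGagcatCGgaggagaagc
Mest, second of its 3 windows, chr6:30737800-30738099, plus strand: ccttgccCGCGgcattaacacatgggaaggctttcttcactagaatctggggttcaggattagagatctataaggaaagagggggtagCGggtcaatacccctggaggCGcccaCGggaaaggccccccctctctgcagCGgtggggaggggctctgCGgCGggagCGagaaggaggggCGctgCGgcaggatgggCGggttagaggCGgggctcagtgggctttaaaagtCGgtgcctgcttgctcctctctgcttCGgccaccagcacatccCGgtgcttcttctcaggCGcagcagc
These held 7, 26, 13 and 17 CpG, where the median over 32851 promoter windows was 7. As many as 26 were found in 16.9% of all windows, and as many as 17 in 31.4%. The GC box GGGCGG, on either strand as GGGCGG or CCGCCC, occurred in 8 of the 15 windows of these genes and in 35.7% of all windows. The Mest windows starting at 30737800 and 30737803 nearly coincide and both count among the 8, so the 15 are not separate promoters. Of the 4 shown, Igf2 held 2, Plagl1 held 2, Mest held 1 and Peg3 held 0.

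H19, a maternally expressed long noncoding RNA, was among the most abundant transcripts of the wild-type tumours. It stood at 6153, 3485 and 4496 CPM in wild-type tumours 19, 20 and 127. In tumours 13, 14A, 59 and 61, labelled Pak2-null, it stood at 25.1, 3.03, 53.2 and 61.8 CPM. The groups lay far apart: the lowest wild-type value was 56.4 times the highest labelled Pak2-null value. Ranked per kilobase of gene length among the tested genes, H19 was number 5, 27 and 11 in tumours 19, 20 and 127, and no higher than number 2585 in the other 4. Mean levels were 4711 ± 1347 CPM (SD, n = 3) and 35.8 ± 26.9 CPM (SD, n = 4), and the log2 fold change, labelled Pak2-null minus wild-type, was -7.02 with a standard error (SE) of 1.03.

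Igf2 followed the same division. It stood at 2633, 973 and 4736 CPM across tumours 19, 20 and 127 and at 2.85, 2.62, 5.49 and 17.2 CPM in tumours 13, 14A, 59 and 61. All 3 wild-type tumours were high, with tumour 20 the lowest, and the labelled Pak2-null tumours rested on 46 to 298 counts each. The lowest wild-type value was 56.5 times the highest of the other group, and the log2 fold change was -8.61 (SE 1.05). Means were 2781 ± 1886 CPM (SD, n = 3) and 7.04 ± 6.90 CPM (SD, n = 4). Per kilobase, the ratio of Igf2 to H19 was 0.207, 0.1351 and 0.510 in wild-type tumours 19, 20 and 127. In tumours 13, 14A, 59 and 61 it was 0.05499, 0.418, 0.04998 and 0.1348. H19 thus exceeded Igf2 in each of the 7 primary tumours. The ranges of this ratio overlapped only through tumour 14A, where it rested on 51 Igf2 and 59 H19 counts. Tumour 61 lay only just below tumour 20, and the difference in this ratio was not tested.

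**Figure D1:**
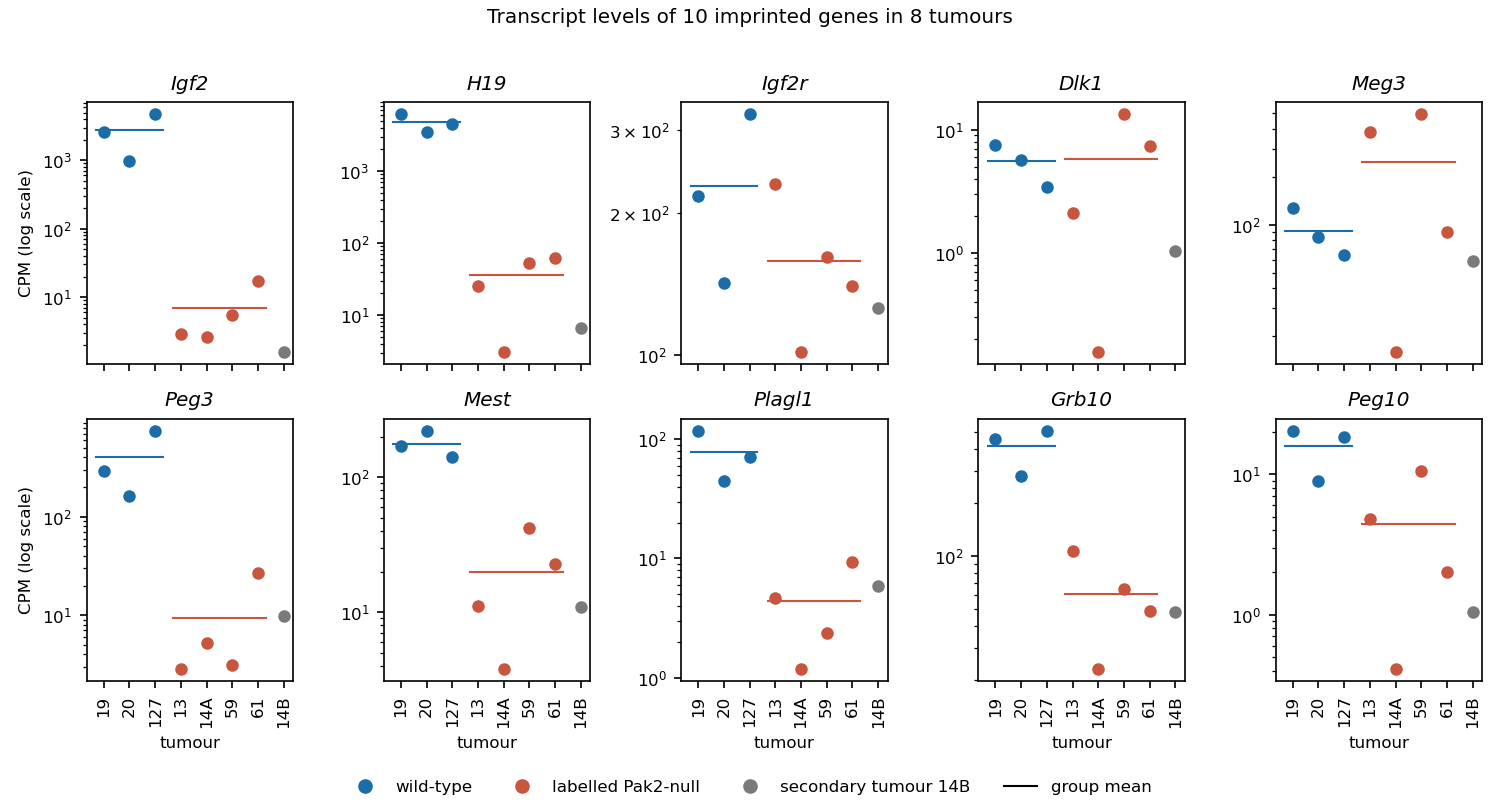
Level of each gene in CPM (log scale, a separate scale per panel) in 3 wild-type tumours (blue), 4 primary tumours labelled Pak2-null (red) and secondary tumour 14B (grey). Each point is 1 tumour and the lines are group means. In Igf2, H19, Peg3, Mest, Plagl1 and Grb10 every blue point lies above every red point, while Igf2r, Dlk1, Meg3 and Peg10 overlap.

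Counting all 10 genes, 6 had levels that did not overlap between the groups, each lower in the tumours labelled Pak2-null, and 4 overlapped. Over all tested genes 8.93% were lower without overlap and 5.07% higher. Since the choice of genes used this contrast, nothing is read from that count. The 6 are not of one parental class: 4 of the 6 paternally expressed members (Igf2, Peg3, Mest and Plagl1) and 2 of the 4 maternally expressed members (H19 and Grb10) were among them.

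The transcription factor genes showed the division too. Plagl1 (chromosome 10, 13090691 to 13131694) encodes a zinc finger protein that activates other imprinted genes, Igf2 and H19 among them. Its level was 119, 45.1 and 71.0 CPM across tumours 19, 20 and 127, and 4.64, 1.18, 2.35 and 9.41 CPM in tumours 13, 14A, 59 and 61. Even the lowest wild-type tumour was 4.79 times the highest of the others, with a log2 fold change of -4.14 (SE 0.73).

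Peg3 (chromosome 7, 6703892 to 6730421), which encodes another zinc finger protein that binds DNA, reached 294, 164 and 751 CPM in the wild-type tumours. It stood at 2.85, 5.24, 3.15 and 26.6 CPM in tumours 13, 14A, 59 and 61. Tumour 61 was highest of its group, yet the lowest wild-type tumour was still 6.18 times higher. The log2 fold change was -5.40 (SE 1.03).

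Grb10 (chromosome 11, 11930508 to 12038683) encodes an adaptor that binds the insulin and IGF1 receptors and restrains them. It was well transcribed in both groups, at 459, 282 and 511 CPM across tumours 19, 20 and 127 and at 106, 23.0, 65.3 and 48.7 CPM in tumours 13, 14A, 59 and 61. The narrowest gap of the 6 genes was here, with the lowest wild-type tumour 2.65 times the highest labelled Pak2-null tumour. Its log2 fold change was -2.75 (SE 0.52).

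Mest (chromosome 6, 30723547 to 30748455), named mesoderm-specific transcript, encodes a protein of the alpha/beta hydrolase fold. Values were 170, 222 and 141 CPM in the wild-type tumours and 11.1, 3.80, 42.2 and 22.8 CPM in tumours 13, 14A, 59 and 61. Here tumour 20, the lowest wild-type tumour for Igf2 and H19, was the highest, and the log2 fold change was -3.13 (SE 0.73). Mest shares its locus with Copg2 on the opposite strand, which was chosen after its values were seen and stood at 42.4 to 50.2 CPM and 32.6 to 43.7 CPM.

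Peg10 (chromosome 6, 4747306 to 4760517), a gene derived from a retrotransposon and needed for the placenta, was low throughout. It stood at 20.5, 9.0 and 18.4 CPM across tumours 19, 20 and 127 and at 4.77, 0.411, 10.5 and 2.02 CPM in tumours 13, 14A, 59 and 61. Tumour 59 was above tumour 20, so the groups overlapped, with a log2 fold change of -1.82 (SE 0.92). Igf2r (chromosome 17, 12682406 to 12769664), the receptor gene for clearance of Igf2, stood at 218, 142 and 325 CPM and at 231, 101, 161 and 140 CPM in the same order. These ranges overlapped widely, with a log2 fold change of -0.50 (SE 0.38). The Igf2 to Igf2r ratio per kilobase was 12.9 to 27.5 in the wild-type tumours and 0.0232 to 0.231 in the labelled Pak2-null tumours.

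Dlk1 and Meg3 share a cluster on chromosome 12 and had another pattern. Dlk1 (109452823 to 109463336), which encodes a membrane protein of the Notch ligand type made by fetal and progenitor cells, was at 7.46, 5.71 and 3.40 CPM across tumours 19, 20 and 127. Tumours 13, 14A, 59 and 61 gave 2.11, 0.154, 13.4 and 7.34 CPM, on both sides of the wild-type values. The log2 fold change was 0.08 (SE 1.12). Meg3 (109541001 to 109571726), a maternally expressed long noncoding RNA that heads a chain of noncoding transcripts, stood at 126, 84.1 and 64.4 CPM and at 384, 15.8, 494 and 90.1 CPM.

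Meg3 was therefore highest in 2 labelled Pak2-null tumours, 13 and 59, and lowest in tumour 14A of the same label, with a log2 fold change of 1.45 (SE 1.01). The next transcripts of this chain, Rian and Mirg, chosen after their values were seen, ran beside it. Rian stood at 118, 94.8 and 50.2 CPM across tumours 19, 20 and 127 and at 324, 15.9, 339 and 61.7 CPM in tumours 13, 14A, 59 and 61. Mirg reached 10.5 CPM in tumour 13 and 11.9 CPM in tumour 59, and 1.03 CPM in 14A. The Meg3 to Rian ratio per kilobase stayed between 0.493 and 0.811 over the 7 primary tumours, whereas Meg3 itself differed 31.3-fold among the labelled Pak2-null tumours.

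The spread among tumours of 1 label was uneven. Among the labelled Pak2-null tumours, 14A was the lowest in 9 of the 10 genes, Peg3 being the exception. Tumour 61 was the highest of that group in Igf2, H19, Peg3 and Plagl1, tumour 59 in Dlk1, Meg3, Mest and Peg10, and tumour 13 in Igf2r and Grb10. Within the group H19 varied 20.4-fold and Igf2 6.57-fold, against 1.77-fold and 4.87-fold among the wild-type tumours. Tumour 14A is also the primary tumour with the pancreatic transcripts and the low fibroblast list, and the part of this in its low values was not tested. How many of all tested genes were lowest in 14A was not counted, so nothing is read from the 9 of 10. In bulk samples, fewer cells of a type and less RNA per cell cannot be told apart.

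The secondary tumour 14B, a single sample with no test, was below every wild-type tumour in all 10 genes. Igf2 stood there at 1.55 CPM (15 counts), H19 at 6.53, Peg3 at 9.85, Plagl1 at 5.91, Mest at 11.0, Grb10 at 48.2 and Igf2r at 126 CPM. In 9 of the 10 it fell within the range of the 4 primary tumours labelled Pak2-null, the exception being Igf2, which was lower. The same counts were not taken over all tested genes, so nothing about these 10 genes in particular is read from them. Meg3 was at 59.3 CPM against 15.8 CPM in tumour 14A, a difference of 1.90 on the log2 CPM scale. Tumour 14B is also the one with the most pancreatic enzyme transcripts (180826 CPM), and its fibroblast list was low (2715 CPM). The part of this in its low values was not tested.

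Skeletal muscle genes were high in the same 3 tumours, and muscle is a tissue in which Igf2 and H19 are known to be active. The 18 muscle genes, from the sarcomere spring Ttn to muscle creatine kinase Ckm, summed to 3228, 36474 and 28490 CPM across tumours 19, 20 and 127. In tumours 13, 14A, 59 and 61 they summed to 20.7, 61.4, 439 and 926 CPM. All 18 were lower in the labelled Pak2-null tumours without overlap, against 8.93% of all tested genes, and the 1 gene at 0 counts in those 4 tumours, Tnnc2, was at most 0.248 CPM in the wild-type tumours as well. Of 14 genes of muscle precursors, such as Pax7, Myod1 and the fetal myosin Myh3, 11 were lower without overlap, where 8.93% is the share over all tested genes. Their sum was 129, 1532 and 7538 CPM in the wild-type and 3.72, 27.3, 64.4 and 49.0 CPM in the other 4 tumours. Pax3, Chrna1 and Mymx overlapped between the groups. Pax3 was at 23.2 CPM in tumour 14A, above its 0.417, 2.55 and 12.4 CPM in tumours 19, 20 and 127. Most of the precursor sum of 14A was thus Pax3, and most of that of tumour 59 was Chrna1, at 55.3 CPM.

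The wild-type tumour with the lowest muscle sum, 19, and the labelled Pak2-null tumour with the highest, 61, were set side by side after their values were seen. In tumour 19 the muscle sum was 3.49 times that of tumour 61, the precursor sum 2.64 times, H19 99.6 times and Igf2 153 times. The part of muscle transcripts in the group difference was not tested. Plagl1, Peg3 and Grb10 were 12.6, 11.1 and 9.42 times as high in tumour 19 as in 61. With tumours 20 and 127 both left out, so that tumour 19 was set alone against the 4 and assumed to vary as they do, the log2 fold changes were -8.50 for Igf2, -7.38 for H19 and -4.70 for Plagl1. For Peg3, Mest and Grb10 they were -4.91, -3.04 and -2.86. This setting was chosen after seeing the data.

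Other markers moved less regularly. Of 8 adipocyte genes 1 (12.5%) was lower without overlap, near the 8.93% of all tested genes, with sums of 1280, 1333 and 181 CPM across tumours 19, 20 and 127 and of 40.6 to 415 CPM in the labelled Pak2-null tumours. Smooth muscle genes summed to 1296 to 4500 CPM and 196 to 1037 CPM, with 5 of 8 (62.5%) lower without overlap. Among these 5 is Des, which is not specific to smooth muscle. Des alone held 361, 2990 and 2069 CPM in tumours 19, 20 and 127, against 9.91 to 97.8 CPM in the labelled Pak2-null tumours. Acta2, Tagln and Smtn overlapped. The sums of 9 macrophage genes (1824 to 5629 and 3417 to 10324 CPM) and of 11 mesothelial genes (136 to 420 and 107 to 454 CPM) overlapped. Their part in the imprinted gene levels was not tested.

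**Figure D2:**
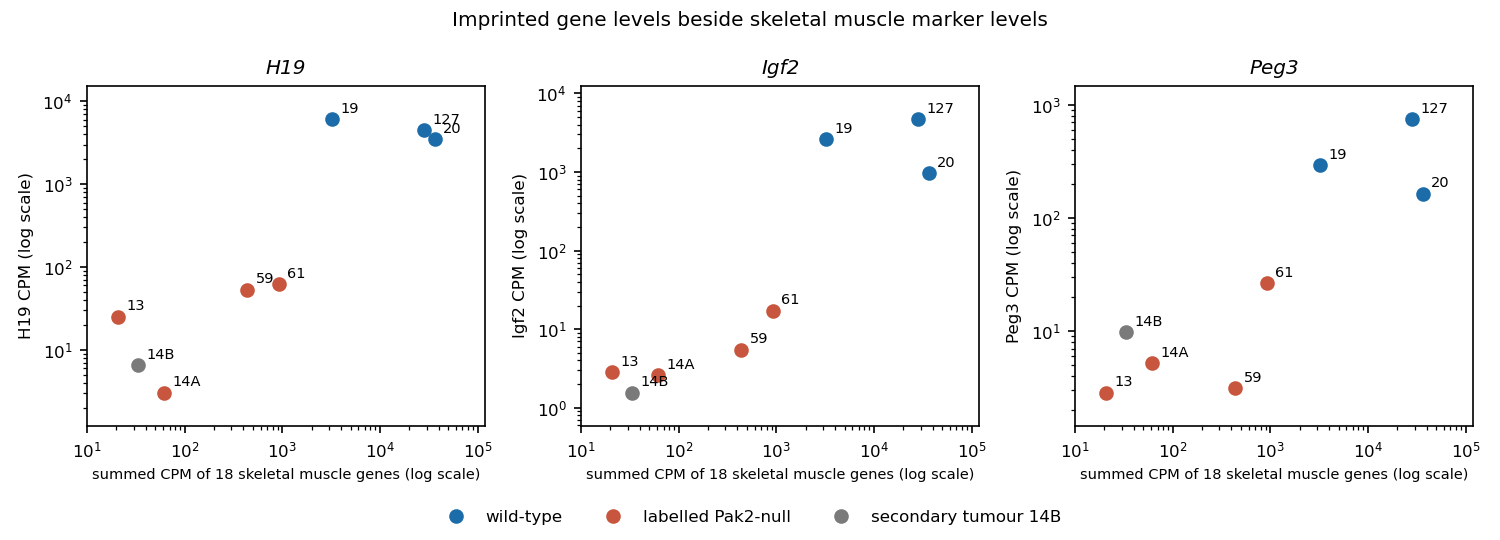
H19, Igf2 and Peg3 (CPM, log scale) against the summed CPM of 18 skeletal muscle genes (log scale) in 8 tumours, each point labelled with its tumour. Tumour 19, with a muscle sum of 3228 CPM, lies as high in H19 (6153 CPM) as tumours 20 and 127, whose muscle sums are 36474 and 28490 CPM.

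Other imprinted genes, from a list of 58, were then examined in the same fit, which called 11 of the 15412 genes (0.0714%) by edgeR's quasi-likelihood test at a Benjamini-Hochberg adjusted p of 0.05. Of those tested, 19 were listed as paternally and 25 as maternally expressed, and none passed. These classes are those of the lists, and expression per allele was not measured. At an unadjusted p under 0.05 there were 7 lower and 2 higher paternal genes and 4 lower and 0 higher maternal genes, where all genes gave 8.55% lower and 4.39% higher. DESeq2 called 5 lower and 1 higher paternal genes and 4 lower maternal genes (5.44% lower and 2.01% higher over all genes), and limma-voom called 1 lower maternal gene, Cdkn1c (0.13% lower and 0.0324% higher over all genes). The median log2 fold changes were -0.42 and -0.23, against 0.06 over all tested genes.

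Cdkn1c, which encodes the cell cycle inhibitor p57Kip2, came nearest among them. It stood at 60.8, 68.2 and 124 CPM across tumours 19, 20 and 127 and at 4.40, 3.14, 6.42 and 11.1 CPM in tumours 13, 14A, 59 and 61, without overlap. The log2 fold change was -3.73 (SE 0.50), with an adjusted p of 0.0590 by edgeR. Over 15 alternatives the adjusted p ran from 1.08e-09 to 0.390, and DESeq2 and limma-voom passed it.

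Zim1, a zinc finger gene beside Peg3, stood at 10.2, 16.2 and 70.6 CPM in the wild-type tumours and at 0.124, 0.0514, 0.123 and 0.751 CPM in tumours 13, 14A, 59 and 61. The log2 fold change was -6.90 (SE 1.12, adjusted p = 0.0978 by edgeR). Peg3 and Zim1 are expressed from opposite parental chromosomes, and both were high in the same 3 tumours. Ddc, a neighbour of Grb10, encodes aromatic amino acid decarboxylase, and Ppp1r9a, a neighbour of Peg10, encodes the actin-binding neurabin. Their log2 fold changes were -3.01 (SE 0.84) for Ddc and -1.16 (SE 0.31) for Ppp1r9a. The groups of Ddc barely parted, at 1.484 CPM in wild-type tumour 19 and 1.481 CPM in labelled Pak2-null tumour 59. Its place in the maternal list is uncertain. Without tumours 20 and 127 the value for Ddc was -0.41 and that for Ppp1r9a was -0.89. Slc22a18, a transporter gene, was at -0.99 (SE 0.56).

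On the paternal side, Igf2os, the antisense transcript of Igf2, stood at 21.05, 2.17 and 4.36 CPM across tumours 19, 20 and 127 and at 0, 0, 0.0617 and 0.0578 CPM in tumours 13, 14A, 59 and 61 (0, 0, 1 and 1 counts). The log2 fold change was -7.97 (SE 1.24, adjusted p = 0.0909 by edgeR). No source used here gives the strand setting of the counting, so reads of Igf2os and of Igf2 cannot be told apart. Snrpn, of the splicing machinery, stood at 11.5, 11.2 and 10.4 CPM and at 1.86, 3.34, 1.73 and 3.81 CPM, a tight division with a log2 fold change of -2.02 (SE 0.40, adjusted p = 0.115 by edgeR).

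Nnat, which encodes a small proteolipid of the endoplasmic reticulum, reached 165 CPM in tumour 19, with 25.9 CPM in 20 and 3.40 CPM in 127, and stood at 1.80 to 6.06 CPM in the labelled Pak2-null tumours. The groups overlapped, and tumour 19 was by far the highest, and the log2 fold change was -4.29 (SE 1.16). Slc38a4, an amino acid transporter gene, and Dio3, which encodes the enzyme that inactivates thyroid hormone, were at -2.24 (SE 0.69) and -2.43 (SE 0.81). Dio3 lies at the far end of the Dlk1 and Meg3 cluster, and unlike those 2 genes it did not overlap between the groups, at 28.7 to 52.9 CPM and 0.668 to 12.1 CPM. Many genes of the imprinted lists did not follow Igf2. Whether each listed gene is imprinted in the cells of these tumours was not measured. Ndn, Peg12, Ube3a, Cd81 and Dcn, chosen after their values were seen, had log2 fold changes of 0.27, 0.02, 0.50, -0.36 and 0.11, each with overlapping groups.

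**Figure D3:**
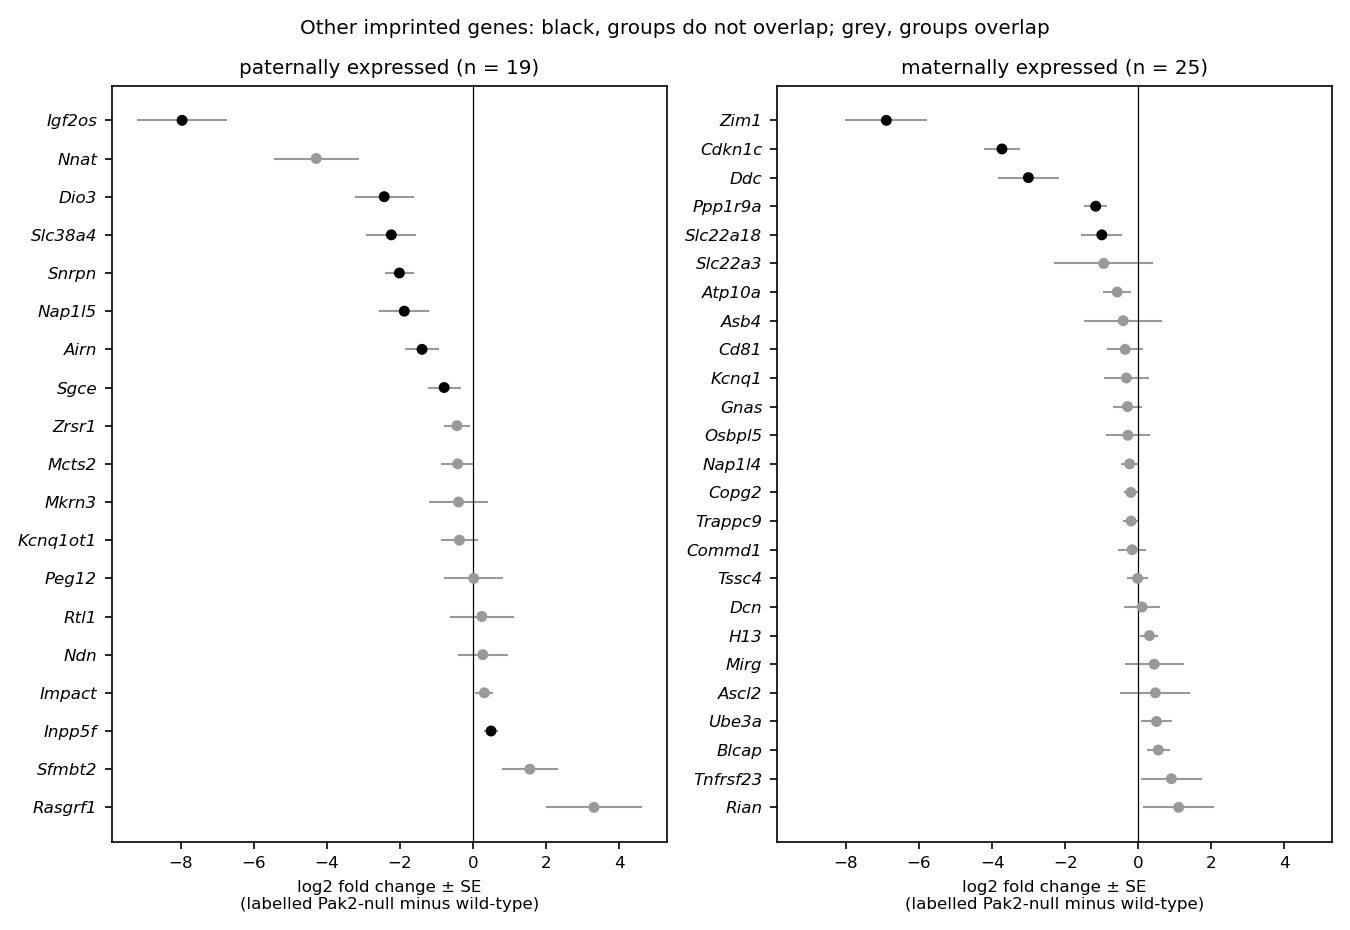
Log2 fold change (labelled Pak2-null minus wild-type, with its SE) of 19 imprinted genes listed as paternally and 25 listed as maternally expressed, other than the 10 described above. In black are genes whose groups do not overlap (8 paternal and 5 maternal, where 8.93% of all tested genes are lower and 5.07% higher without overlap), and all of these but Inpp5f are lower in the labelled Pak2-null tumours. None passed the adjusted test.

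Neighbours within 200 kb of the 10 genes were followed to see how far the difference reached along each chromosome. Of 70 neighbours 39 were tested and 0 passed edgeR's adjusted test. At an unadjusted p under 0.05 there were 14 (35.9%), all lower, where all tested genes gave 8.55% lower and 4.39% higher. DESeq2 called 11, all lower, and limma-voom 0, against 5.44% and 0.13% lower over all tested genes. The groups did not overlap in 15, each lower, where 8.93% of all tested genes were lower in that way. Not all of these were new genes, as looked up after the values were seen. Igf2os, Airn, Zim1, Ddc, Sgce and Ppp1r9a are also in the imprinted lists, and Tnnt3 and Tnni2 in the skeletal muscle list. Gm16574 and Gm7162 lie within the span of Airn, and Mas1 overlaps it.

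Around H19 the profile was broken. Mrpl23, a mitochondrial ribosomal protein gene 34.8 kb from H19, had a log2 fold change of -0.13 (SE 0.22), and Lsp1, a leukocyte gene 80.7 kb away, 0.13 (SE 0.44), both chosen after their values were seen. Between and beyond them the fast muscle troponin genes Tnnt3 and Tnni2 were at -5.82 (SE 1.61) and -5.57 (SE 1.38), and Nctc1, 16.9 kb from H19, at -5.28 (SE 1.55), Tnnt3 and Nctc1 being chosen in the same way. Without tumours 20 and 127 the value for Tnni2 was -3.0. Syt8, Prr33 and Ctsd, added after their values were seen, were at -4.23 (SE 1.11), -1.34 (SE 0.51) and 0.88 (SE 0.89). Of 9 tested neighbours of H19, 7 had a negative and 2 a positive log2 fold change. Around Plagl1 and Mest the other tested genes lay between -1.34 and 1.12, apart from the members themselves.

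Around Igf2r, its antisense RNA Airn, which silences the paternal Igf2r allele in most tissues, stood at 11.2, 12.8 and 14.4 CPM across tumours 19, 20 and 127 and at 5.45, 1.70, 5.80 and 6.18 CPM in tumours 13, 14A, 59 and 61, without overlap. The Igf2r to Airn ratio per kilobase was 1.72 to 3.48 in the wild-type and 3.51 to 9.26 in the labelled Pak2-null tumours. Airn, chosen after its values were seen, overlaps Igf2r on the opposite strand, so its reads are uncertain in the way those of Igf2os are. Mas1, a receptor gene beside Igf2r, was at or under 1.28 CPM in each primary tumour, with a log2 fold change of -2.77 (SE 0.70). Near Grb10, the actin nucleator gene Cobl had a log2 fold change of -5.46 (SE 1.12, adjusted p = 0.117 by edgeR), and -1.74 without tumours 20 and 127.

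**Figure D4:**
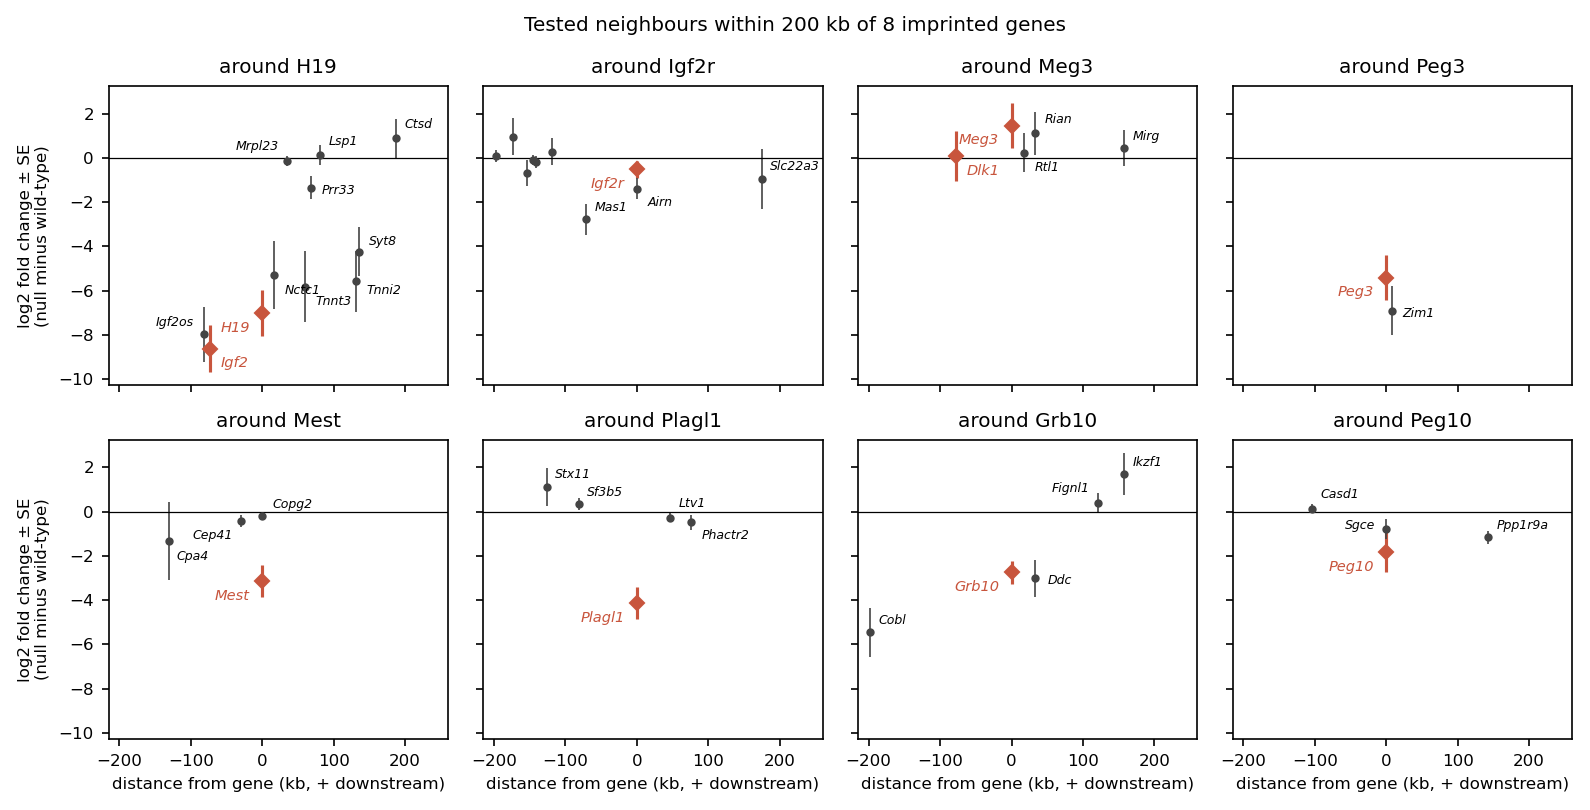
Log2 fold change with its SE (labelled Pak2-null minus wild-type) of tested neighbours within 200 kb, by distance in kb from the gene named above each panel, positive downstream. Red diamonds are members, grey points neighbours with an informative symbol. Near H19, Mrpl23 and Lsp1 lie near 0 while Igf2, Igf2os, Nctc1, Tnnt3 and Tnni2 lie below -5. Syt8, Prr33 and Ctsd lie at -4.23, -1.34 and 0.88. Around Plagl1 and Mest the member lies apart from its neighbours.

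The genes that receive, bind and process IGF ligands were examined in the same fit. Igf2 was chosen for its strong difference, so a comparison of their differences with that of Igf2 is not informative. Of 19 tested members of the IGF axis 0 passed edgeR's adjusted test, with 3 lower and 2 higher at an unadjusted p under 0.05. The shares over all genes were 8.55% and 4.39%. DESeq2 called 2 lower and 2 higher, against 5.44% and 2.01% of all genes, limma-voom called 0, and the median log2 fold change was -0.12. Igf1, the other ligand gene, stood at 127, 192 and 130 CPM across tumours 19, 20 and 127 and at 32.1, 26.5, 86.1 and 70.6 CPM in tumours 13, 14A, 59 and 61, lower without overlap, with a log2 fold change of -1.45 (SE 0.45). Per kilobase, Igf2 was 7.55 to 54.5 times Igf1 in the wild-type tumours and 0.0953 to 0.364 times Igf1 in the labelled Pak2-null tumours.

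The receptor genes Igf1r and Insr, chosen after their values were seen, lay near 0, with 0.02 for Igf1r (SE 0.50) and 0.13 for Insr (SE 0.43) on the log2 scale. Htra1, which encodes a protease that cleaves IGF-binding proteins, was higher without overlap, at 100 to 138 CPM against 217 to 374 CPM, with a log2 fold change of 1.34 (SE 0.28, adjusted p = 0.118 by edgeR). Pappa2, another such protease, was at 5.05, 16.8 and 144 CPM across tumours 19, 20 and 127 and at 0.693 to 4.20 CPM in the others, and its log2 fold change of -4.96 (SE 1.25) became -1.48 without tumours 20 and 127. Stc2, an inhibitor of that protease family, and Igf2bp3, which encodes an RNA-binding protein of Igf2 messenger RNA, were at -2.20 (SE 0.71) and 3.56 (SE 1.19). Without tumours 20 and 127 the value for Stc2 was -0.78.

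Among 9 tested regulators of fetal growth 0 passed edgeR's adjusted test, with 1 lower and 1 higher at an unadjusted p under 0.05, the same number by DESeq2 and 0 by limma-voom. Of 9 genes 1 is 11.1%, where all genes gave 8.55% lower and 4.39% higher. The 2 genes at that level lay in opposite directions. Gpc3, an X-linked glypican gene of fetal tissue, was at 309, 50.1 and 33.1 CPM across tumours 19, 20 and 127 and at 0.124, 7.66, 1.60 and 6.41 CPM in tumours 13, 14A, 59 and 61. Hmga1, which encodes a chromatin protein of embryonic cells, was at 75.1, 28.6 and 11.4 CPM and at 410, 93.2, 695 and 474 CPM. The log2 fold change was -5.03 for Gpc3 (SE 1.30) and 3.47 for Hmga1 (SE 0.90). Hmga2, Plag1 and E2f3 were at 2.89 (SE 1.77), 1.73 (SE 1.18) and 0.45 (SE 0.35), all with overlapping groups. Wild-type tumour 19 weighed on Hmga2 and Plag1: without it their values were 6.33 and 4.03, and without tumours 20 and 127 they were 1.43 and 0.39.

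Genes that set and keep imprints had a median log2 fold change of 0.04. Of 16 tested, 0 passed edgeR's adjusted test, and DESeq2 and limma-voom called 0. At an unadjusted p under 0.05 there were 0 lower and 1 higher (6.25%), where all genes gave 8.55% lower and 4.39% higher. DESeq2 called 5.44% lower and 2.01% higher over all genes. Among so few genes these counts cannot show a lack of difference. Tet3 and Tet1, which encode enzymes that oxidise methylated DNA, lay on either side of 0, with log2 fold changes of 0.66 for Tet3 (SE 0.28) and -1.13 for Tet1 (SE 0.50), and the value for Tet3 was 0.34 without tumours 20 and 127. Smchd1, Smc3 and the DNA methyltransferase gene Dnmt3b were at 0.56 (SE 0.28), 0.25 (SE 0.19) and -0.56 (SE 0.47), the last being -1.06 without those 2 tumours. Ctcf, whose protein binds the control region of Igf2 and H19, was at 74.3 to 99.7 CPM and 67.5 to 101 CPM, and Dnmt1, which copies methylation, at 53.9 to 151 CPM and 83.8 to 138 CPM. Both were chosen after their values were seen.

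Likeness to Igf2 was ranked by Pearson's r of log2 CPM over the 8 tumours, as a description with no test. The 5 genes most like Igf2 were Lbp (0.992), Faim2 (0.989), Sox11 (0.986), Adcy2 (0.985) and Chadl (0.985). Those most like H19 were Rbp4 (0.983), Nog (0.981), Cops4 (0.981), Lbp (0.98) and Pef1 (0.978). These values mostly reflect the gap between the wild-type tumours and the rest, which all of these genes share. Lbp, the plasma protein gene that appears in both rankings, stood at 141, 132 and 160 CPM across tumours 19, 20 and 127 and at 29.8 to 46.7 CPM in tumours 13, 14A, 59 and 61.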

How the data were processed

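RNA of 8 mouse tumours was sequenced after mRNA enrichment, per the labels' protocols. The authors deposited raw read counts per gene in 1 table with 1 column per tumour, and a gene length in bases. STAR and HTSeq with GRCm38 and mm10 are named in the submitters' processing notes, while no source used here gives versions, annotation release or strand setting. The table had 0 entries that name no gene.

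Genes with enough counts by filterByExpr (minimum count 10, minimum total 15; 15412 of 35275) were passed to edgeR 4.0.16 (R 4.3.3): TMM normalisation, no covariate, 4 primary tumours labelled Pak2-null against 3 wild-type, tumour 14B left out. The quasi-likelihood test was adjusted by Benjamini-Hochberg over all tested genes at 0.05. The SE was obtained from the fold change and its F statistic. CPM was scaled with TMM-adjusted library sizes of the tested genes in the 8 tumours, log2 CPM a prior count of 2, and values per kilobase the deposited length. The fit was also run on simulated counts with 200 genes changed by known folds. That run, whose outcome is not given here, does not show how the fit performs on tumours of differing cell content. Alternatives included DESeq2 1.42.0 and limma-voom (limma 3.58.1).

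The members and gene lists were chosen with earlier results of these data known. Of each list the text names up to 5 tested genes with the lowest p, and of the neighbours likewise; the 5 genes most like Igf2 and H19 need an informative symbol, markers are named by their list, and any other gene is said to be chosen after its values were seen. Zfp264, Snurf, Peg13, Plagl1it and Copg2os2 were not matched to the table. Of the deposited identifiers 97.8% were found in GENCODE M21. Coordinates are those of the deposited table, and 7 of the 10 members have the same span in GENCODE M21. Counts include PCR copies, so the floor of 3 counts covers counting error only.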

Additional observations from a re-analysis of the deposited data

Results flagged for a closer look

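Peg3 in tumour 61 stood at 26.6 CPM, far above the other 3 primary tumours labelled Pak2-null (2.85, 3.15 and 5.24 CPM). Its neighbour Zim1 was at 0.751 CPM in the same tumour, against 0.0514, 0.123 and 0.124 CPM. Pappa2 was at 4.2 CPM in tumour 59, against 0.693, 0.867 and 1.23 CPM. Smc3 was at 58 CPM in tumour 14A, against 77.7, 77.8 and 80.6 CPM. These are 4 single tumours that stand apart by Dixon's criterion among 41 groups looked at, and chance flags about 1 group in 20. In the secondary tumour 14B, which none of the comparisons between genotypes used, 2 of the same 41 genes (the members and those named by rule) exceeded every primary tumour: Pak2 at 239 CPM against at most 238 CPM, and Cdkn2a at 6.43 CPM against at most 5.7 CPM.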

How the results depend on the processing

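The log2 fold changes of Igf2 (-9.54 to -7.99), H19 (-7.70 to -6.64), Peg3 (-6.72 to -4.59), Plagl1 (-4.82 to -3.72), Mest (-3.82 to -2.79), Grb10 (-3.17 to -2.48), Peg10 (-2.73 to -1.44), Igf2r (-0.75 to -0.18) and Meg3 (0.59 to 1.84) kept their sign in all 15 alternatives, which for the 6 genes without overlap was fixed by the groups themselves. Dlk1 kept its sign in 10 of 15 (-1.19 to 0.48). The count of 11 genes over the whole table became 1149 with DESeq2, 25 with limma-voom and 4 with all 8 tumours in the fit. It ran from 0 to 59 with 1 tumour left out: 59 without tumour 19, 1 without 127, 8 without 14A and 0 without 20, 13, 59 or 61. Without tumours 20 and 127 it was 0. With DESeq2 the counts passing were 6 genes of the paternal and 4 of the maternal imprinted list, 4 of the IGF axis, 2 fetal growth regulators and 11 neighbours. Limma-voom passed 1 gene of the maternal list. In the other alternatives these counts, and that of imprint maintenance genes in all of them, were 0. The cause was not tested. No paired analysis was possible because the genotypes share no replicate number. Dlk1 in tumour 14A rested on 3 counts, so its level there is known only to the limit of depth.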

Other observations

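Rasgrf1, an imprinted gene for an exchange factor that activates Ras, went against the direction of Igf2. It stood at 47.4 CPM in tumour 14A and 54.4 CPM in tumour 14B, at 1.27 to 12.6 CPM in the other labelled Pak2-null tumours and at 0.559 to 3.34 CPM in the wild-type tumours, a log2 fold change of 3.31 (SE 1.31, adjusted p = 0.347 by edgeR). Ins2, an insulin gene 11.8 kb upstream of Igf2, had 893 counts in tumour 14A and 4616 in 14B, the tumours with pancreatic enzyme transcripts, and at most 1 count in any other. Igfbp5, an IGF-binding protein gene, did not follow the labels: it was at 603 to 3390 CPM in the wild-type tumours and at 2694 CPM in tumour 13, but at 66.1 to 85.0 CPM in tumours 14A, 59 and 61. Igfbp2 stood at 36.3, 166 and 247 CPM across tumours 19, 20 and 127 and at 54.4 CPM in tumour 61, against at most 1.48 CPM in tumours 13, 14A and 59. These genes were chosen after their values were seen.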
